A study of Mus musculus with 11 samples.

Results

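The genes described here are 46 mouse ribosome biogenesis factors, a list of named genes that covers RNA polymerase I, the small nucleolar ribonucleoproteins (snoRNPs), and the assembly factors of both ribosomal subunits. Each gene was read from 1 probe set, the one with the highest mean over all arrays among those assigned to a single gene. By this rule 43 of the 46 were measured, out of 22180 genes on the arrays. Fbl, Tsr1 and Mrto4 were present only on probe sets shared with other genes and were not analysed here. The study measured total RNA from hematopoietic stem cells (HSCs), from which all blood cells descend, on 11 Affymetrix arrays of sorted mouse cells. RApIC cells came from mice that received all-trans retinoic acid and afterwards polyI:C (3 arrays), and pIC cells from mice that received polyI:C alone (2 arrays). ATRA cells came from mice that received all-trans retinoic acid alone (3 arrays), and PBS cells from mice that received phosphate-buffered saline (3 arrays). All-trans retinoic acid is the active form of vitamin A, and polyI:C is a synthetic double-stranded RNA that imitates a viral infection and induces interferon. The sources used here give no strain, age, dose, time or sorting gate, and do not say whether replicates came from separate animals.

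Ribosomes are built mainly in the nucleolus. RNA polymerase I copies the ribosomal DNA into a long precursor, box C/D and box H/ACA snoRNPs guide its methylation and pseudouridylation, and a large set of assembly factors folds, cuts and exports the small (40S) and large (60S) subunits. The genes for these factors usually move together with cell growth, and resting HSCs are known for a low rate of protein synthesis.

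The stretch before the start of a few genes is shown here because 33 of the 43 genes moved together after pIC, while Ppan, a 60S assembly factor, moved the other way on the probe set used. Nop2, Nolc1 and Rrn3 are examples that hold matches and do not stand for the 33. Each is the 250 bases before the gene's start in RefSeq's GRCm38.p6 table, 5′ to 3′ on the gene's strand. Capitals mark every match, on either strand, of the letters CACGTG (the E-box that Myc and related factors bind), CCGGAAG (a core of Ets family sites), CACGCG (a related E-box form) and TCGCGAGA. Matches of different motifs among these cannot overlap. Nop2, a cytosine methyltransferase of the 28S ribosomal RNA, at chr6:125131633-125131882 on the plus strand, holds CACGTG 60 bases and CCGGAAG 38 bases before its start.
Nop2: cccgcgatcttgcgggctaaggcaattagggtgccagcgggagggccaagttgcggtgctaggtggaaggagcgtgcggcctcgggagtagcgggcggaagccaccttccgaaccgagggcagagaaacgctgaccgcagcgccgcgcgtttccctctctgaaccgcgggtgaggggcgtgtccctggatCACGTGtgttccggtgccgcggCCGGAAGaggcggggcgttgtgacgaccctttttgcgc
Nolc1, a snoRNP chaperone, at chr19:46075597-46075846 on the plus strand, holds CACGCG, read on the other strand, 25 bases and CCGGAAG 14 bases before its start.
Nolc1: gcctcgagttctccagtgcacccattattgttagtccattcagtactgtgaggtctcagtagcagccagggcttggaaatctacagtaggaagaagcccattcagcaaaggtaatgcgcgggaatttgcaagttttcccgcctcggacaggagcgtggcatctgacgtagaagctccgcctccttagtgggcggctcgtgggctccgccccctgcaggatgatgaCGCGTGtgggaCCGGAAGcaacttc
Rrn3, which brings polymerase I to the ribosomal DNA promoter, at chr16:13780449-13780698 on the plus strand, holds CACGTG 215 and 48 bases before its start.
Rrn3: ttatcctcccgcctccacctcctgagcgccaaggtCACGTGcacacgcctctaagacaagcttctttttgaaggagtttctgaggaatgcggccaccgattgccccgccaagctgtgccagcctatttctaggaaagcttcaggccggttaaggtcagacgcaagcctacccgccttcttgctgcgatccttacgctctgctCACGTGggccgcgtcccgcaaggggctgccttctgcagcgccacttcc
Ppan, at chr9:20887925-20888174 on the plus strand, holds none of these letters in the stretch printed.
Ppan: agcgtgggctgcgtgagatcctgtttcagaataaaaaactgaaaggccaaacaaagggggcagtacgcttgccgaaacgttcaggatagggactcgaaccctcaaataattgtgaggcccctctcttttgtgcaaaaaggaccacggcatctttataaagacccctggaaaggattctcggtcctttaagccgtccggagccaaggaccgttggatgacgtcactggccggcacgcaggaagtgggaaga
RefSeq's table matched 40 of the 46 genes and 27025 genes in all. In these 250 bases CCGGAAG was found in 11 of the 40 (27.5%, against 7.83% of all genes in the table), CACGCG in 6 (15%, against 8.65%), CACGTG in 3 (7.5%, against 6.86%) and TCGCGAGA in 3 (7.5%, against 0.98%). The 3 with CACGTG were Imp4, Nop2 and Rrn3. With the 50 bases after the start included, the matches were CCGGAAG in 14 (35%, against 9.93%), CACGCG in 12 (30%, against 10.49%), CACGTG in 8 (20%, against 8.09%) and TCGCGAGA in 4 (10%, against 1.13%). In that longer window Ppan holds both CCGGAAG and CACGCG. The median log2 difference of pIC from PBS was 0.53 in the 13 measured genes with CCGGAAG in the longer window and 0.43 in the 25 without it, and 0.43 in the 7 with CACGTG and 0.50 in the 31 without it. It was 0.46 in the 12 with CACGCG and 0.45 in the 26 without it. For TCGCGAGA it was 0.41 in the 3 with it and 0.47 in the 35 without it. These are letter matches, not sites shown to be bound.

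Levels are log2 intensities. Differences between groups are differences of mean log2 intensity, with the standard error after ±, and come from limma fitted to the 22180 genes on all 11 arrays, with p adjusted by Benjamini-Hochberg over all genes. A gene is said to rise or fall at an adjusted p under 0.05. The spread behind the p-values is that between these samples alone and may be technical, and the small number of arrays limits the precision of every value. Array medians lay between 6.19 and 6.28. All 13 measured HSC markers had mean levels above the array median, at a median percentile of 86.2. This is not particular to HSC markers, since it was 89.6 for 7 megakaryocyte and 73.9 for 13 erythroid genes. It was 33.5 to 47.9 for the T and NK cell, monocyte and macrophage, B cell and neutrophil lists. The RApIC replicate 2 array stood apart from its group. On the first principal component, with 56.0% of the variance, the RApIC arrays lay at 35.8, -4.53 and 23.3 (replicates 1 to 3), the pIC arrays at 35 and 37.8, the ATRA arrays between -24.5 and -22.4 and the PBS arrays between -22.9 and -15.2. Counts, medians and the differences of the genes with per-array values that rest on the RApIC arrays are therefore given with and without that array. In bulk RNA, fewer cells of a type and less RNA per cell cannot be told apart.

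After pIC, most ribosome biogenesis factors were higher than in PBS cells. Of the 43 genes 33 rose (76.7%), against 8.94% of all genes tested, and 1 fell, against 5.75%. Their median log2 difference was 0.50, against 0.0013 for all genes. The largest rises were those of Bysl, which works in late 40S maturation, by 1.11 ± 0.17, Nolc1 by 0.97 ± 0.18 and Noc4l, a 40S assembly factor, by 0.92 ± 0.12 (adjusted p 0.00378, 0.008 and 0.00186). Both pIC arrays lay above all 3 PBS arrays for 40 genes, which 23.4% of all genes showed, and below them for 2, Ppan and Npm1, which 19.6% showed. Only Imp3 overlapped. With RApIC replicate 2 left out of the model, 34 rose and 1 fell (10.8% and 7.52% of all genes). Without pIC replicate 1 or 2 the count of genes that passed, rises and falls together, was 11 or 7, and without PBS replicate 2 it was 20, while the list's median stayed between 0.43 and 0.54 over the 11 fits that leave out 1 array.

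The median of the 43 genes per array, relative to the PBS mean of each gene, separates the groups by pIC. It was 0.38, 0.12 and 0.37 on RApIC arrays 1 to 3, 0.48 and 0.48 on the pIC arrays, -0.07, -0.04 and 0.03 on the ATRA arrays and 0.01, -0.05 and 0.06 on the PBS arrays. Every array with pIC lay above every array without it, and RApIC replicate 2 was the lowest of those with pIC. The number of genes above their PBS mean was 40, 36 and 39 on RApIC arrays 1 to 3, 41 and 40 on the pIC arrays, 10, 15 and 23 on the ATRA arrays and 23, 8 and 36 on the PBS arrays.

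**Figure D1:**
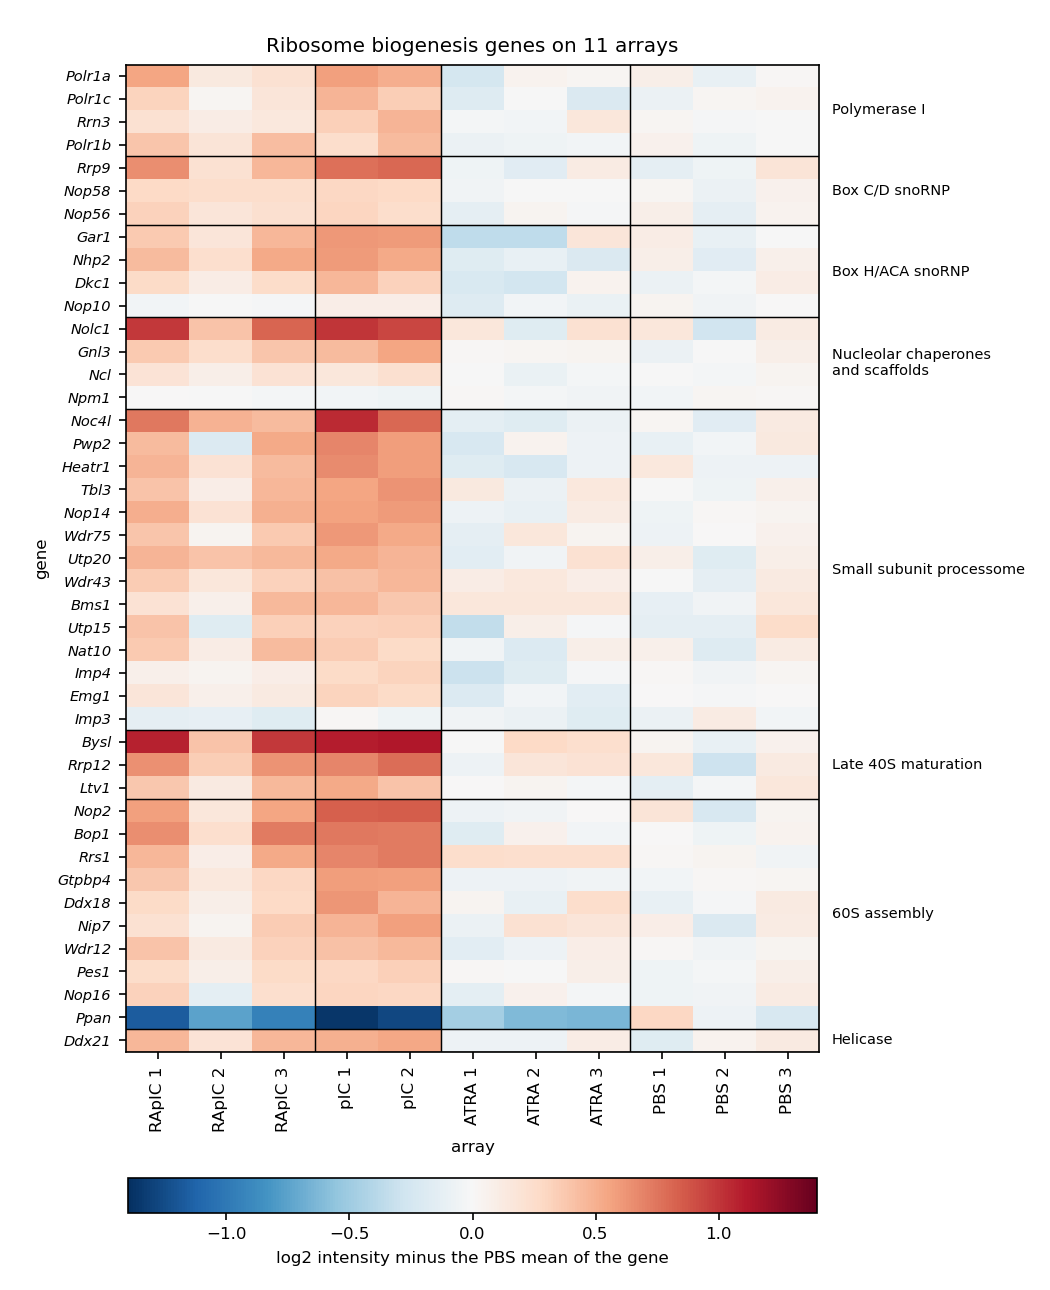
Heat map of the 43 genes (lines, grouped by role) on the 11 arrays (columns), coloured by log2 intensity minus the gene's PBS mean, red for higher and blue for lower. The pIC columns are red for all but a few genes, RApIC replicate 2 is paler than its group, and Ppan alone is strongly blue.

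RNA polymerase I makes the precursor of the ribosomal RNAs. Polr1a and Polr1b encode the large catalytic subunits, Polr1c a subunit shared with polymerase III, and Rrn3 the initiation factor. All 4 rose in pIC against PBS cells, by 0.34 to 0.54 on the log2 scale. Polr1b had 9.93 and 10.13 in pIC cells, against 9.75, 9.63 and 9.68 in PBS cells, and 10.07, 9.86 and 10.11 in RApIC cells, against 9.60, 9.63 and 9.65 in ATRA cells. Neither pair of groups overlapped, and Polr1b rose by 0.34 ± 0.10 without ATRA (adjusted p 0.0387) and by 0.39 ± 0.09 after it (adjusted p 0.0259), or by 0.46 without RApIC replicate 2 (adjusted p 0.00498). Its call without ATRA held in 7 of 18 alternative fits.

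Among the box C/D proteins, which form the methylation snoRNPs, 2 of 3 rose. Rrp9, a protein particular to the U3 snoRNP that is needed for the first cleavages of the precursor, had 9.72 and 9.75 in pIC cells, against 8.83, 8.89 and 9.13 in PBS cells. RApIC cells had 9.60, 9.17 and 9.42 for Rrp9, against 8.89, 8.79 and 9.06 in ATRA cells. Arrays with pIC were higher in both pairs of groups, with no overlap, and the rises were 0.79 ± 0.14 (adjusted p 0.00569) and 0.48 ± 0.12 (adjusted p 0.0405), the second being 0.60 without RApIC replicate 2 (adjusted p 0.00722). Of the core proteins, Nop58 rose by 0.28 ± 0.07 (adjusted p 0.0289), and Nop56 differed by 0.27 ± 0.09, which did not pass (adjusted p 0.0757).

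Of the 4 box H/ACA proteins, which form the pseudouridylation snoRNPs, 3 rose. Nhp2 had 9.92 and 9.85 in pIC cells, against 9.40, 9.16 and 9.39 in PBS cells. Its values in RApIC cells were 9.76, 9.56 and 9.85, against 9.15, 9.22 and 9.12 in ATRA cells. Again neither pair overlapped, and the rises were close in size, 0.57 ± 0.11 (adjusted p 0.00762) and 0.56 ± 0.10 (adjusted p 0.00878). The rise of Nhp2 after ATRA was 0.64 without RApIC replicate 2 (adjusted p 0.00154). Gar1 rose by 0.60 ± 0.16 and Dkc1, the pseudouridine synthase mutated in dyskeratosis congenita, by 0.40 ± 0.11 (adjusted p 0.0274 and 0.0357). Nop10, a small protein of the complex, differed by 0.10 ± 0.07 (adjusted p 0.48).

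The nucleolar chaperones and scaffolds divided. Gnl3 (nucleostemin), a nucleolar GTPase, had 10.92 and 11.03 in pIC cells, against 10.40, 10.47 and 10.56 in PBS cells. After ATRA, Gnl3 had 10.85, 10.72 and 10.87 in RApIC cells, against 10.49, 10.51 and 10.51 in ATRA cells. The groups did not overlap in either pair, and Gnl3 rose by 0.50 ± 0.08 (adjusted p 0.0049) and by 0.31 ± 0.08 (adjusted p 0.0331), or by 0.35 after ATRA without RApIC replicate 2 (adjusted p 0.0143). Nolc1 rose as given above. Ncl (nucleolin), an abundant protein of the nucleolus, differed by 0.19 ± 0.08 (adjusted p 0.129), and Npm1 (nucleophosmin), a histone and ribosome chaperone, by -0.05 ± 0.07 (adjusted p 0.703).

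The small subunit processome, the large particle that assembles on the 5′ part of the precursor, had 10 rises among 14 genes, with a median of 0.47. Noc4l had 9.48 and 9.24 in pIC cells, against 8.46, 8.28 and 8.56 in PBS cells. In RApIC cells it had 9.17, 8.92 and 8.88, against 8.30, 8.26 and 8.35 in ATRA cells. Noc4l was thus apart in both pairs of groups, and its call without ATRA and its call after ATRA each held in all 18 alternative fits. The rise of Noc4l in RApIC against ATRA cells was 0.69 ± 0.11 (adjusted p 0.00628), or 0.72 without RApIC replicate 2 (adjusted p 0.00324). Heatr1, an early-binding component, rose by 0.62 ± 0.11 and Nop14, known in yeast as a partner of Noc4, by 0.58 ± 0.11 (adjusted p 0.00531 and 0.00728). Of the other early-binding components Wdr75 rose by 0.57 and Wdr43 by 0.43, and of the complex that joins next Pwp2 rose by 0.63 and Tbl3 by 0.59. The scaffold Utp20, the GTPase Bms1 and the methyltransferase Emg1 rose by 0.50, 0.42 and 0.29. Imp4, Nat10 (the acetyltransferase of 18S ribosomal RNA) and Utp15 differed by 0.29, 0.31 and 0.33 and did not pass (adjusted p 0.0524, 0.146 and 0.296). Imp3, which binds with Imp4 next to the U3 snoRNA, differed by -0.02 ± 0.09 (adjusted p 0.9).

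The late 40S genes showed the highest median of the role groups, 0.73, and all 3 rose. Bysl had 9.37 and 9.39 in pIC cells, against 8.30, 8.16 and 8.33 in PBS cells, a 2.16-fold rise. In RApIC cells it had 9.34, 8.67 and 9.26, against 8.26, 8.55 and 8.50 in ATRA cells. Both pairs were apart, but RApIC replicate 2 lay closer to the ATRA arrays than to the other two of its group. Bysl rose by 0.65 ± 0.16 in RApIC against ATRA cells (adjusted p 0.0315), and by 0.86 without that array (adjusted p 0.000503). Rrp12, which takes part in subunit export, rose by 0.73 and Ltv1, known in yeast as a late 40S factor, by 0.47 in pIC against PBS cells.

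Among the 10 measured 60S assembly genes 8 rose, 1 fell and 1, Nop16, differed by 0.30 ± 0.13 without passing (adjusted p 0.159). Gtpbp4, a GTPase whose yeast counterpart is Nog1, had 10.19 and 10.18 in pIC cells, against 9.56, 9.62 and 9.63 in PBS cells. In RApIC cells it had 9.98, 9.75 and 9.90, against 9.54, 9.54 and 9.55 in ATRA cells. Gtpbp4 rose by 0.58 ± 0.08 (adjusted p 0.00283) and by 0.33 ± 0.07 (adjusted p 0.0246), with no overlap in either pair. The rise of Gtpbp4 after ATRA was 0.40 without RApIC replicate 2 (adjusted p 0.00484). Bop1, Wdr12 and Pes1 form the PeBoW complex, which is needed for maturation of the 28S ribosomal RNA. They rose by 0.73, 0.43 and 0.31 in pIC against PBS cells. Nop2 rose by 0.84 ± 0.14 and Rrs1, which in yeast helps to bring in the 5S ribonucleoprotein, by 0.71 ± 0.12 (adjusted p 0.00464 and 0.0043). The helicase Ddx18 rose by 0.55 and Nip7 by 0.53. Ddx21, a helicase that binds both ribosomal DNA and snoRNAs, was counted on its own. It had 11.27 and 11.31 in pIC cells, against 10.60, 10.82 and 10.89 in PBS cells, and rose by 0.52 ± 0.12 (adjusted p 0.0153). After ATRA, Ddx21 had 11.23, 10.96 and 11.24 in RApIC cells, against 10.71, 10.70 and 10.87 in ATRA cells, groups that did not overlap, and the difference of 0.38 ± 0.10 lay just outside the threshold (adjusted p 0.0507). The Ddx21 difference passed without RApIC replicate 2, at 0.47 (adjusted p 0.0112).

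Ppan, the counterpart of yeast Ssf1 in 60S assembly, fell on the probe set used by 1.32 ± 0.15 (adjusted p 0.00117), to 0.40 of its PBS level. That it goes against the other genes was known when the list was made. It had 10.07 and 10.15 in pIC cells, against 11.72, 11.36 and 11.21 in PBS cells. In RApIC cells it had 10.27, 10.68 and 10.49, and in ATRA cells 10.95, 10.81 and 10.80. The 4 groups stood in the order pIC, RApIC, ATRA and PBS with no overlap between any of them. The fall from PBS passed in pIC cells and in RApIC cells, where it was 0.95 ± 0.14 (adjusted p 0.00658). The difference of -0.58 ± 0.14 between ATRA and PBS cells and that of -0.37 ± 0.14 between RApIC and ATRA cells did not pass (adjusted p 0.306 and 0.139). Without RApIC replicate 2, Ppan differed by -1.05 between RApIC and PBS cells (adjusted p 0.00138) and by -0.47 between RApIC and ATRA cells (adjusted p 0.0506).

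Ppan has a second probe set, however, and it did not show the fall. On probe set 17515045 the Ppan values were 10.27 and 10.11 in pIC cells, against 10.16, 10.24 and 10.17 in PBS cells. They were 10.12, 10.12 and 10.08 in RApIC cells and 10.11, 9.997 and 10.12 in ATRA cells. The arrays of pIC and PBS cells overlapped there. In the same model fitted over 23521 probe sets, the pIC difference from PBS was 0.0022 ± 0.08 on this probe set (adjusted p 0.992), against -1.32 ± 0.15 on probe set 17515058, the one used (adjusted p 0.00126). The RApIC difference from PBS was -0.08 ± 0.07 (adjusted p 0.623), against -0.95 ± 0.14. The Ppan fall thus rests on 1 of 2 probe sets. The sources used here do not say which part of the locus each covers, and RefSeq places 2 snoRNA genes inside Ppan, whose part in the result was not tested.

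**Figure D2:**
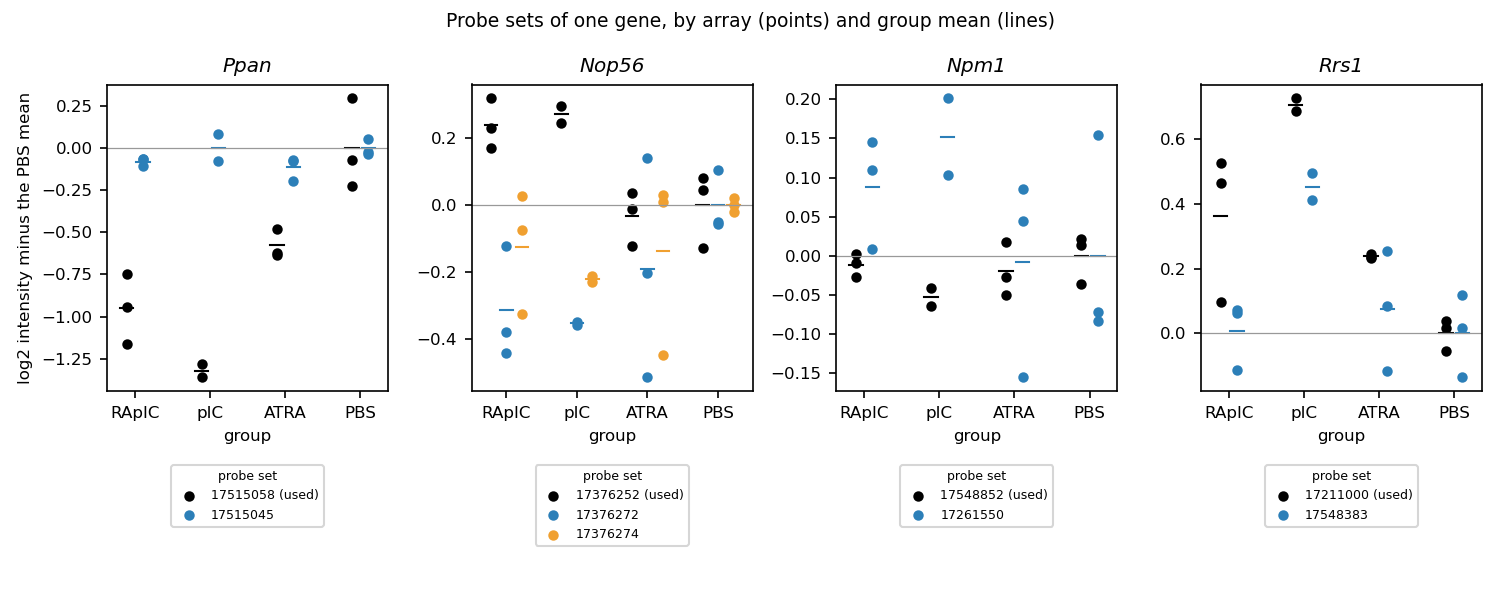
Log2 intensity minus the PBS mean of the same probe set (vertical axis) in RApIC, pIC, ATRA and PBS cells for each probe set of Ppan, Nop56, Npm1 and Rrs1; points are arrays and short lines group means. The used Ppan probe set (black) falls in pIC and RApIC cells while the other stays near 0, and the Nop56 probe sets part in direction in pIC cells, whereas both Rrs1 probe sets are higher in pIC cells.

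Of the 43 genes, 8 had more than 1 probe set, and in pIC against PBS cells the probe sets of a gene moved alike for some genes and not for others. Both Rrs1 probe sets rose, by 0.71 and 0.45, and so did both of Ddx21, by 0.52 and 0.71. Only the probe set used rose for Ddx18, by 0.55, with 0.15 on the other, and for Bms1, by 0.42, with 0.0012 on the other. These other probe sets were dimmer. Their mean level was 7.13 for Ddx18, against 9.66 on the one used, and 5.57 for Bms1, against 8.51. The level of 5.57 lies below the array medians. Nop56 differed by 0.27 on the probe set used and by -0.22 and -0.35 on the others, none of which passed. Npm1 differed by -0.05 and 0.15, and Imp3 by -0.02 and -0.07. RefSeq places snoRNA genes inside 8 of the 46 genes (Nop56, Nop58, Dkc1, Ncl, Gnl3, Wdr43, Tsr1 and Ppan). Over all 75 probe sets named for a snoRNA, the median pIC difference from PBS was -0.14, with 3 rises and 12 falls. Probe sets also differ in the step of their identifier to the next one on the array, and the sources used here do not say what that step stands for. It was 2 or less for the probe sets used of 5 of the 43 genes, and for 10.6% of all single-symbol probe sets. Of these 5 genes 3, Ppan, Npm1 and Imp3, had a negative difference, against 0 of the other 38. The differences of Npm1 and Imp3 lay near 0, at -0.05 and -0.02, and did not pass. The step was 1 for the remaining genes of the 5, Rrn3 and Tbl3, which both rose. The step was 2 for 67 of the 75 snoRNA probe sets. This was noticed after the values were seen, and its part in the result was not tested.

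Beyond the 46 genes, 117 other ribosome biogenesis genes were measured, and 59 of them rose and 0 fell in pIC against PBS cells, with a median of 0.36. By role, 4 of 12 further polymerase I factors, 15 of 34 small subunit factors, 28 of 48 large subunit factors, 4 of 10 snoRNP assembly factors and 8 of 13 RNA exosome genes rose. Utp14a and Wdr46, of the small subunit processome, rose by 0.71 ± 0.09 and 0.76 ± 0.10, and the 60S factors Sdad1 and Tma16 by 0.86 ± 0.11 and 0.86 ± 0.12. Mybbp1a and Tcof1 (treacle), which act in polymerase I transcription, rose by 0.52 and 0.37, and Ruvbl2 and Nufip1, which assemble snoRNPs, by 0.61 and 0.56. In the exosome, which trims the precursor, Exosc9 rose by 0.76 and the nuclease Dis3 by 0.50.

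Ribosomal protein genes divided by compartment. Of 71 mitochondrial ribosomal protein genes 41 rose and 0 fell in pIC against PBS cells, with a median of 0.38, and Mrpl22 and Mrpl38 rose by 0.63 and 0.85. Of 67 cytosolic ones 3 rose and 2 fell, with a median of -0.10. The cytosolic genes that passed, named after their values were seen, were Rpl34, Rps27l and Rps4l, which rose by 0.81, 0.38 and 0.48, and Rpl21 and Rps28, which fell by 0.29 and 0.32. The assembly genes of the cytosolic ribosome thus rose in pIC cells while most cytosolic ribosomal protein genes did not pass in either direction, 62 of 67 by limma (18 of the 67 had an unadjusted p under 0.05). Their differences leaned downward, with 45 of the 67 negative. Both pIC arrays lay below all PBS arrays for 31 of the 67 and above them for 13 (19.6% and 23.4% of all genes). The 67 were taken by symbol and include genes named as ribosomal protein-like, among them Rps27l, Rps4l, Rpl32l and Rpl7l1. Several cytosolic ribosomal protein genes have near-identical copies, which probe sets may not tell apart.

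**Figure D3:**
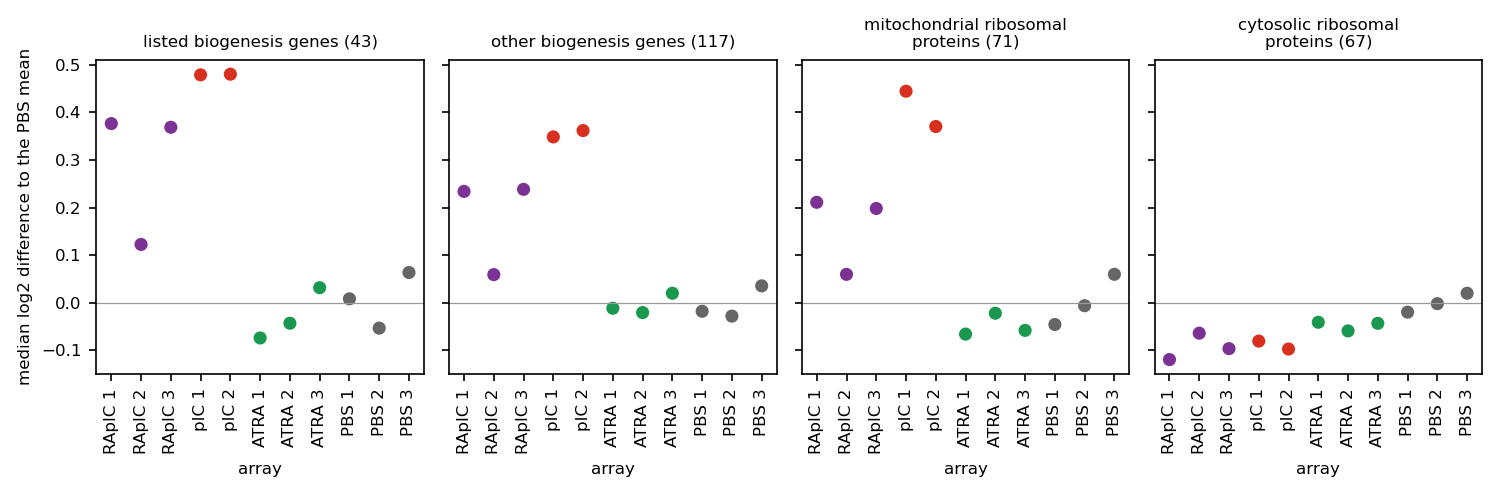
Median log2 difference to the PBS mean (vertical axis) on each of the 11 arrays for the 43 listed genes, the 117 other biogenesis genes, 71 mitochondrial and 67 cytosolic ribosomal protein genes; 1 point is 1 array. The first 3 panels are high on the pIC arrays, lower on the RApIC arrays and near 0 on the ATRA and PBS arrays, with RApIC replicate 2 lowest of those with pIC, and the cytosolic panel stays between -0.12 and 0.02.

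Markers of other cells moved between the same groups. In pIC against PBS cells 7 of 13 erythroid, 3 of 17 T and NK cell, 3 of 14 monocyte and macrophage and 4 of 7 megakaryocyte genes rose, 1 of the 7 megakaryocyte genes fell, 0 of 9 B cell and 0 of 12 neutrophil genes passed (1 and 0 had an unadjusted p under 0.05), and 8 of 13 HSC markers fell. The summed erythroid intensity was 13597, 7481 and 11620 on the RApIC arrays, 15390 and 16977 on the pIC arrays, 8260 to 9212 on the ATRA arrays and 9426 to 10520 on the PBS arrays. The summed T and NK cell intensity was 14009, 3317 and 11241 on the RApIC arrays, 12123 and 12404 on the pIC arrays, 2654 to 2966 on the ATRA arrays and 2746 to 3153 on the PBS arrays. The summed HSC marker intensity was 11199, 16338 and 12636 on the RApIC arrays, 11640 and 11464 on the pIC arrays, 17659 to 18824 on the ATRA arrays and 17685 to 18740 on the PBS arrays. The erythroid factor Klf1 rose by 1.70 and the transferrin receptor Tfrc by 0.89, while the erythrocyte membrane genes Slc4a1 and Epb42 differed by -0.17 and -0.12. The T cell receptor genes Cd3d, Cd3e and Cd3g differed by 1.52, 1.31 and 2.48 without passing (adjusted p 0.109, 0.146 and 0.138). They were picked after their values were seen. Over the 17 T and NK cell genes, 15 differences were positive and 2 negative, from -0.33 to 4.82. Cd8a stayed between percentiles 17.9 and 24.6 of the arrays and Klrd1 between 10.4 and 19.3. The sums add intensities off the log scale, so the brightest genes weigh most. In the T and NK cell list Ccl5 ran from percentile 61.8 to 99.9, the highest reached in that list. That sum therefore does not give the share of these cells. RApIC replicate 2 was nearest to the arrays without pIC in these sums too, and the part of other cell types in the biogenesis result was not tested.

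After ATRA, pIC was again followed by higher levels of these genes. In RApIC against ATRA cells 14 of the 43 rose (32.6%), against 3.5% of all genes, and 0 fell, against 3.71%. The median was 0.31, against -0.0033 for all genes, and 41 differences were positive. Arrays did not overlap between the groups for 28 higher genes and 1 lower one, Ppan, which 11.7% and 12.4% of all genes showed. The rises with the smallest p, besides those given above, were those of Heatr1 by 0.53 ± 0.10, Bop1 by 0.59 ± 0.12 and Nop14 by 0.42 ± 0.10 (adjusted p 0.0112, 0.0174 and 0.0273). Nolc1, Utp20, Nop58 and Nop2 rose by 0.67, 0.43, 0.28 and 0.47. Without RApIC replicate 2 the count was 30 rises and 0 falls (6.98% and 7.51% of all genes), with a median of 0.40, and all 14 genes were among the 30. Leaving out another array of either group, or a pIC array, gave 2 to 8 genes.

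All 14 genes that rose after ATRA also rose without it. The pIC and PBS arrays and the RApIC and ATRA arrays are separate, although the model shares 1 estimate of spread among them. Across the 43 genes the effects of pIC without and after ATRA correlated with Pearson's r of 0.82 and Spearman's rho of 0.69 (0.77 and 0.67 without Ppan), a description across genes, which are not independent. The effect was larger without ATRA for 37 of the 43 genes, and 42 of the 43 had the same sign in both. Without RApIC replicate 2 the correlations were 0.87 and 0.74, the effect was larger without ATRA for 32 of the 43 genes, and 28 genes rose in both settings. The other biogenesis genes had 14 rises and 0 falls of 117 in RApIC against ATRA cells, with a median of 0.20, and the mitochondrial ribosomal protein genes 12 rises and 0 falls of 71, with a median of 0.23. Of the cytosolic ribosomal protein genes 2 rose and 2 fell, with a median of -0.04. HSC markers had 6 falls of 13, T and NK cell and erythroid genes 2 rises each, and the monocyte and megakaryocyte lists 3 rises each, and 1 of 12 neutrophil genes fell. The summed neutrophil intensity was 3092, 979 and 979 on ATRA arrays 1 to 3, and 780 to 952 on the arrays of the other groups. ATRA replicate 1 thus stood apart from its group in that list. With RApIC replicate 2 left out, the other biogenesis genes had 38 rises and 0 falls, the mitochondrial ribosomal protein genes 27 and 0 and the cytosolic ones 3 rises and 6 falls. In that fit T and NK cell genes had 14 rises and 1 fall, erythroid genes 7 rises and 1 fall, and 9 HSC markers fell. The part of these other cells was not tested.

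**Figure D4:**
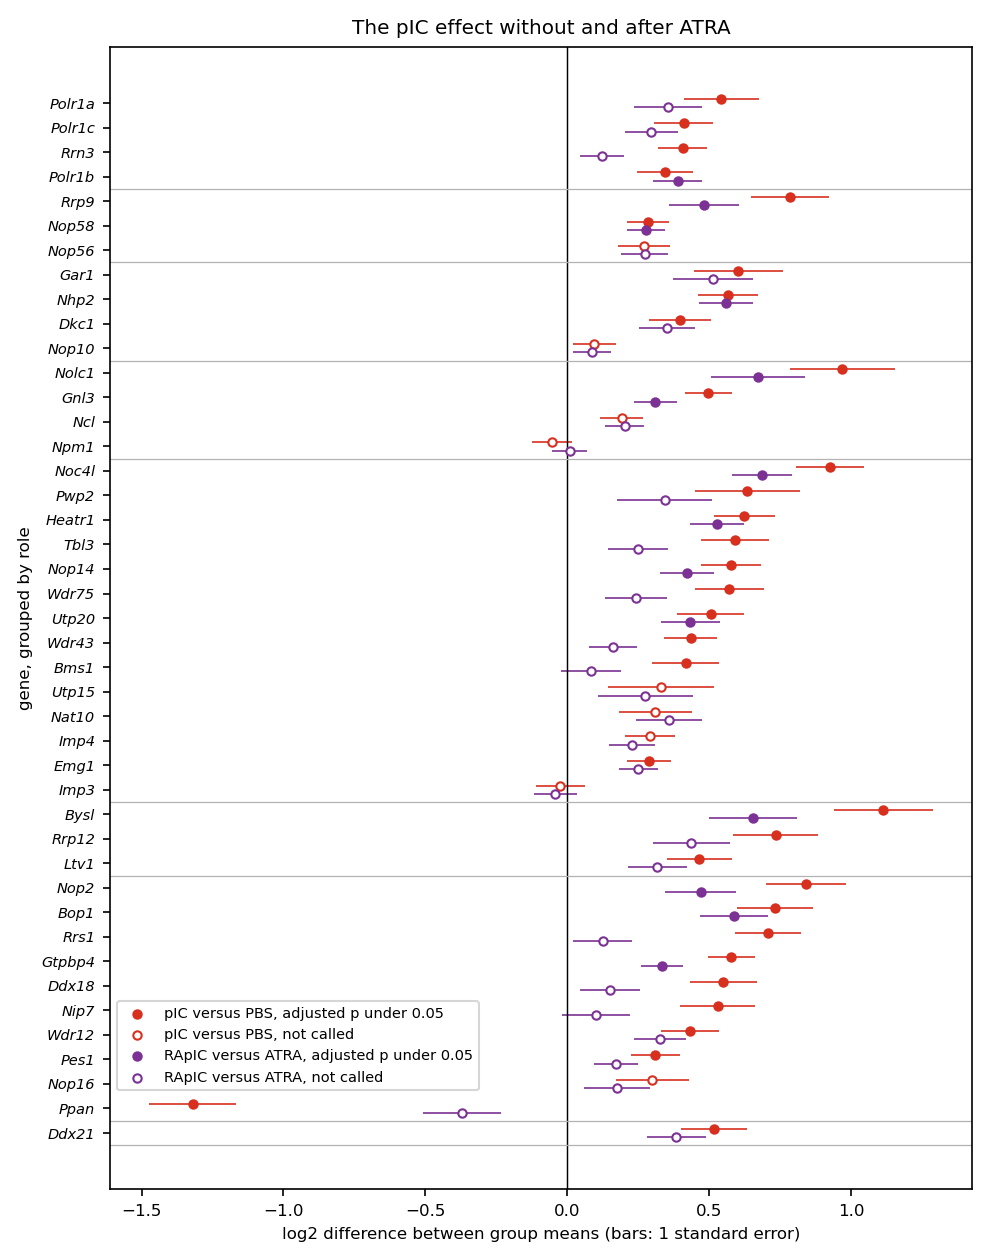
Log2 difference between group means (horizontal axis, bars 1 standard error) for the 43 genes grouped by role, for pIC versus PBS (red) and RApIC versus ATRA (purple); filled points passed an adjusted p under 0.05. Most red points lie to the right of their purple partner, 33 red and 14 purple rises are filled, and Ppan lies alone on the left.

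RApIC cells set against PBS cells, a comparison that shares its arrays with the others, had 7 rises (16.3% of the 43, against 1.61% of all genes) and 1 fall, that of Ppan (against 1.51%). The median was 0.28. Bysl rose by 0.82 ± 0.16, Noc4l by 0.56 ± 0.11, Bop1 by 0.54 ± 0.12 and Gnl3 by 0.34 ± 0.08 (adjusted p 0.0212, 0.0216, 0.0401 and 0.0401). Nolc1, Nhp2 and Utp20 rose by 0.74, 0.40 and 0.44. Nop14 differed by 0.40 ± 0.10 just outside the threshold (adjusted p 0.0504), and passed without RApIC replicate 2, at 0.50 (adjusted p 0.0051). The arrays of 28 genes were all higher than in PBS cells and those of 2, Ppan and Imp3, all lower (9.82% and 10.5% of all genes). Without RApIC replicate 2 there were 23 rises and 1 fall (5.48% and 5.65% of all genes) and a median of 0.38, and all 8 genes given above were among them. Leaving out 1 array of any group other than RApIC replicate 2 gave 1 to 4 genes.

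ATRA alone was not followed by a detectable change of these genes. By limma 0 of the 43 passed in either direction, against 0.00451% of all genes that rose and 0% that fell, and 2 had an unadjusted p under 0.05, Ppan and Rrs1. The median was -0.04, and 15 differences were positive. With RApIC replicate 2 left out of the model the count was also 0, against 0.0676% and 0.0496% of all genes. Rrs1 had 8.23, 8.22 and 8.22 in ATRA cells, against 7.999, 8.02 and 7.93 in PBS cells. The ATRA arrays lay above the PBS arrays without overlap, as they did for 1 of the 43 genes (6.61% of all genes), and below them for 3 (6.08%). For Rrs1 this was a difference of 0.24 ± 0.10 that did not pass (adjusted p 0.723). Its other probe set differed by 0.07 ± 0.11. Imp4, Heatr1, Nhp2, Dkc1 and Emg1 differed by -0.16, -0.16, -0.16, -0.14 and -0.13, Nop10 by -0.10 and Bms1 by 0.16, with adjusted p of 0.767 or more.

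RApIC cells had lower values than pIC cells for nearly all of the genes, without any passing the test. By limma 0 of the 43 passed in either direction, as did 0% of all genes, and 14 had an unadjusted p under 0.05. The median was -0.18, against -0.02 for all genes, and 41 of 43 differences were negative. Both pIC arrays lay above all RApIC arrays for 29 genes, which 17.4% of all genes showed, and below them for 2, Ppan and Npm1, which 9.74% showed. Gtpbp4 differed by -0.31 ± 0.08, Noc4l by -0.37 ± 0.12, Rrs1 by -0.34 ± 0.12 and Nop2 by -0.41 ± 0.14 (adjusted p 0.283, 0.36, 0.367 and 0.371). Ddx18, Wdr75, Rrn3 and Imp4 differed by -0.34, -0.30, -0.25 and -0.23, and Ppan by 0.37 ± 0.15 (adjusted p 0.451), with -0.08 on its other probe set. Against the pIC mean the median was -0.10, -0.35 and -0.11 on RApIC arrays 1 to 3, with 34, 41 and 37 genes below it, so that replicate 2 lay lowest. Without replicate 2 the median was -0.10, with 36 of the 43 differences negative and 0 genes passing. Ppan then differed by 0.27 and Rrs1 by -0.21. The other biogenesis genes had a median of -0.18, the mitochondrial ribosomal protein genes -0.25 and the cytosolic ones -0.01, or -0.11, -0.19 and -0.04 without replicate 2. Erythroid markers were lower in RApIC than in pIC cells too. All 13 differences were negative with a median of -0.68 (-0.38 without replicate 2), 10 had no overlap between the arrays, 8 had an unadjusted p under 0.05 and 0 passed. HSC markers had a median of 0.11 and T and NK cell genes one of 0.01 (0.04 and 0.43 without replicate 2). The part of these cells in the difference was not tested.

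The interaction, the pIC effect after ATRA minus that without it, was negative for 37 of the 43 genes, with a median of -0.14, against -0.02 for all genes. By limma 0 of the 43 passed in either direction, as did 0% of all genes, and 5 had an unadjusted p under 0.05. The smallest p-values belonged to Ppan with 0.95 ± 0.21 and Rrs1 with -0.58 ± 0.16 (adjusted p 0.702 and 0.742). Ddx18, Rrn3 and Nip7 came next with -0.40, -0.28 and -0.43, and then Gtpbp4, Wdr43, Tbl3 and Bms1 with -0.24, -0.27, -0.34 and -0.33. Without RApIC replicate 2 the median was -0.05, 32 of the 43 were negative and 0 passed. The interaction was then 0.85 for Ppan and -0.45 for Rrs1.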

How the data were processed

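Total RNA of the 11 samples was labelled with biotin and hybridised to Affymetrix arrays, per the labels' protocols. The deposited values are log2 intensities of 41345 probe sets, and the oligo package 1.36.1, RMA and limma 3.28.20 are named without role or order, per the submitters' processing notes. By the platform's annotation table, 23521 probe sets belong to a single gene symbol, 1814 to more than 1 and 16010 to none that it lists. For each gene the single-symbol probe set with the highest mean was used, which gave 22180 genes.

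limma 3.58.1 in R 4.3.3 was fitted to all arrays with 4 group means and plain empirical Bayes, and 6 two-sided contrasts were adjusted by Benjamini-Hochberg within each contrast. Groups came from the sample titles. The alternatives were the mean over a gene's probe sets, cyclic loess, the dimmest 40% of genes left out, a replicate block, only the groups compared, a trend and robust prior, array weights and each array left out. The second Ppan probe set was added after its values were seen. Per contrast, the rule named with statistics Ppan and the genes with the smallest p (12 in pIC versus PBS, 8 elsewhere), gave per-array values for Ppan and 1 gene per role group, and named 2 genes of each other list by p in pIC versus PBS. The values of Rrs1 per array, of the other probe sets and of Slc4a1, Epb42 and the Cd3 genes were chosen after they were seen. The list's genes, the other lists and the tests were chosen with earlier results of these data known. The fit was tested on simulated data. Tables used pandas 2.3.3 and numpy 2.4.6, and figures matplotlib 3.10.9, under Python 3.11.15.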

Additional observations from a re-analysis of the deposited data

Results flagged for a closer look

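Ppan and Rrs1 were singled out because the ATRA effect ran in opposite directions without and with pIC, with no overlap between the arrays in either setting. Of all genes, 6.61% were higher and 6.08% lower without overlap in ATRA against PBS cells. In RApIC against pIC cells these shares were 9.74% and 17.4%. The share of all genes with both in opposite directions was not counted, so the flag is not shown to be particular to these genes. Ppan had values 0.58 lower in ATRA than in PBS cells on the log2 scale and 0.37 higher in RApIC than in pIC cells, an interaction of 0.95 ± 0.21 that did not pass limma's test (adjusted p 0.702, unadjusted p 0.00082). This was the probe set used, and on the other Ppan probe set the interaction was 0.03 ± 0.11. Without RApIC replicate 2, Ppan on the probe set used differed by 0.27 between RApIC and pIC cells, with an interaction of 0.85. Rrs1 had values 0.24 higher in ATRA than in PBS cells and 0.34 lower in RApIC than in pIC cells, an interaction of -0.58 ± 0.16 (adjusted p 0.742, unadjusted p 0.00333). On the other Rrs1 probe set the interaction was -0.52 ± 0.16 (adjusted p 0.735), and there the ATRA and PBS arrays overlapped. Without RApIC replicate 2, Rrs1 on the probe set used differed by -0.21 between RApIC and pIC cells, with an interaction of -0.45.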

How the results depend on the processing

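The counts of genes that passed moved with single arrays and with other choices. Counts over all genes moved too: without RApIC replicate 2, rises in RApIC versus ATRA went from 3.5% to 6.98% of all genes. Apart from that fit, the counts here and those with 1 array left out in the sections above stand without the share of all genes. They cannot be read as particular to the listed genes. With 1 array left out, 7 to 35 genes passed in pIC versus PBS (34 with all arrays), 2 to 30 in RApIC versus ATRA (14), 1 to 24 in RApIC versus PBS (8), 10 to 69 of the other biogenesis genes (59) and 6 to 55 ribosomal protein genes (46). ATRA versus PBS, RApIC versus pIC and the interaction had 0 in every fit. The array weights were 0.65, 0.37 and 4.19 for RApIC replicates 1 to 3, so the weighted RApIC mean rests mostly on replicate 3. RApIC versus ATRA had 35 genes with array weights and 2 with only the groups compared. RApIC versus PBS had 28 and 0 in those fits, 5 with cyclic loess, 16 without the dimmest genes, 15 with the trend and robust prior and 4 with the replicate block. The block gave 31 in pIC versus PBS and 15 in RApIC versus ATRA. Same-numbered arrays correlated between -0.11 and 0.10 in their deviations, and arrays with different numbers between -0.14 and 0.11. Of the arrays, 0 of 11 matched its own number best. Deviations within groups this small depend on each other, so these values cannot decide whether same-numbered arrays were paired.

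Signs turned only near 0 or with the probe set. For Nop56, pIC versus PBS, the mean over its probe sets gave -0.10, and for Npm1, pIC versus PBS, 0.050. With cyclic loess, Nop10, pIC versus PBS, was -0.0021 and Npm1, RApIC versus ATRA, -0.067, which was -0.0030 with array weights. With 1 array left out, Imp3, pIC versus PBS, ran from -0.066 to 0.035, Npm1, RApIC versus ATRA, from -0.0068 to 0.027, and Bms1, RApIC versus ATRA, from -0.022 to 0.17. The other Ppan probe set, added after its values were seen, gave 0.0022 for Ppan, pIC versus PBS, 0.034 for Ppan, RApIC versus ATRA, and -0.083 for Ppan, RApIC versus pIC. Ppan passed in pIC versus PBS in all 18 alternatives, between -1.43 and -0.66, and in RApIC versus PBS in 17. The -0.66 came from the mean over the 2 Ppan probe sets, and the other alternatives rest on the probe set used. Of the 33 rises, those of Bysl, Gtpbp4, Heatr1, Noc4l, Nop2 and Rrs1 passed in all 18.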

Other observations

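Of the snoRNAs that RefSeq places inside the listed genes, 10 had a probe set of their own, and in pIC against PBS cells only Snord91a, inside Tsr1, passed, with -1.32 ± 0.39 on the log2 scale (adjusted p 0.0477 by limma over 23521 probe sets). Snord110, inside Nop56, differed by 0.79 ± 0.54, and Snord70, inside Nop58, by -0.55 ± 0.67. Their SE exceeded that of the host genes, which was 0.09 for Nop56 and 0.07 for Nop58. In RApIC against ATRA cells Snord91a differed by 0.17, with the opposite sign, and did not pass (adjusted p 0.86 by limma).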
